A study of Mus musculus with 77 samples.

Results

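The late PU.1 enhancers are 2967 of the 44002 enhancers (6.74%) in a deposited table of mouse granulocytic-monocytic enhancers. They were chosen by the authors' own classes: the bound factor given as PU.1 without CEBPA, and a stage class that begins after LSK and includes granulocytes. Of them, 1123 are classed as present from preGM to granulocytes, 505 in GMP and granulocytes, and 1339 in granulocytes alone. The criteria behind both classes are not given in the sources used here.

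All cells were sorted from fresh mouse bone marrow. LSK are lineage-negative Sca-1+ progenitors of many lineages. The preGM (Lin-, Sca-1-, ckit+, CD150- and CD105-) and GMP (Lin-, Sca-1-, ckit+, CD150- and FcgRII/III+) are successive granulocyte and monocyte progenitors. The granulocytes are the Mac1+Gr-1+ cells. These 4 groups were wild type. One further group was preGM with the genotype CEBPA KO. The deleting allele, the age of the mice and the number of mice behind each library are not given in the labels. ChIP-seq, which reads the DNA bound to a chosen protein or histone mark, was done for H3K27ac and H3K4me1 in all 5 groups, for PU.1 in LSK, preGM, GMP and CEBPA KO preGM, and for CEBPA in wild type preGM.

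PU.1, encoded by Spi1, is an ETS family factor that binds GGAA-centred sites and is needed for myeloid and B cell development. It binds many enhancers before they are active, and CEBPA, the main granulocyte and monocyte commitment factor of these progenitors, often binds beside it. H3K4me1 marks enhancers whether poised or active, while H3K27ac marks the active ones. The enhancers described here carry PU.1 without a CEBPA call and gain their enhancer class only after the multipotent stage.

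Each ChIP-seq group had 2 libraries, which nothing in the labels ties to separate mice, and the table holds 1 pooled value per enhancer and group. There are therefore no replicates in the values below, no standard deviation and no test of any difference, and the depth behind each value is unknown. A difference is given as a log2 ratio after adding a pseudocount of 0.7 to H3K27ac, 2 to H3K4me1 and 0.6 to PU.1, which understates the difference at weak enhancers. An enhancer was counted as different when the ratio reached 2-fold, and the counts reported here over all late PU.1 enhancers stand beside the share of all 44002 enhancers that did the same. Going by their names, the classes rest on wild type marks and binding, so comparisons among wild type stages are descriptions of the chosen enhancers. The names of the classes mention neither the CEBPA KO nor expression.

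The expression values of the table set the sorted groups apart by their markers. In bulk samples such as these, fewer cells of a type and less RNA per cell cannot be told apart. The summed value of 6 LSK markers was 9940 in LSK and 360 in granulocytes. That of 6 progenitor markers was highest in GMP, at 43200. That of 8 granulocyte markers went from 320 in LSK to 56100 in granulocytes. Cebpa itself, the targeted gene, had a value of 208 in wild type preGM and 48.3 in CEBPA KO preGM. Spi1 was not analysed here.

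The enhancers themselves are given by position in build mm9, of which no sequence was at hand. Promoters of their genes could be read from RefSeq in build GRCm38.p6, from 250 bases before the start to 50 after, and were searched on both strands for the 8-base letters GAGGAAGT, a common core of PU.1 sites. Of the 2223 genes assigned a late PU.1 enhancer, 1795 matched (80.7%). The letters stood in 115 of their 2348 promoters (4.9%), against 1052 of all 32851 promoters of the RefSeq table (3.2%). For genes of the class seen in granulocytes alone the share was 66 of 1158 (5.7%). A match describes letters in a window and not a bound site. The sequences below are shown because their genes belong to groups described later: a neutrophil integrin subunit (Itgb2l), regulators of cell movement and the cytoskeleton (Arhgap25, Rhog, Vav1) and a phosphatase of immune receptor signalling (Inpp5d). They were chosen after the values were seen. Each gives the 100 bases before the start, read 5′ to 3′ along the gene's strand, with the matched letters in capitals.
Itgb2l, chr16:96443615-96443714, minus strand: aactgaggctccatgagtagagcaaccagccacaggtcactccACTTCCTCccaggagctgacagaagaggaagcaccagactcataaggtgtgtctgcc
Arhgap25, chr6:87533260-87533359, minus strand: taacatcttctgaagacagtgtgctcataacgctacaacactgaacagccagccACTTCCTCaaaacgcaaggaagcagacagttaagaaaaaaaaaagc
Rhog, chr7:102250119-102250218, minus strand: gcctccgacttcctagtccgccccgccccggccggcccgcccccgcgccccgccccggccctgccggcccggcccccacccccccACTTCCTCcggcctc
Vav1, chr17:57279000-57279099, plus strand: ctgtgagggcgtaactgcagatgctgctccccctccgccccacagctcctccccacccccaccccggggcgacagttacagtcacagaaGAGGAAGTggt
Inpp5d, chr1:87620212-87620311, plus strand: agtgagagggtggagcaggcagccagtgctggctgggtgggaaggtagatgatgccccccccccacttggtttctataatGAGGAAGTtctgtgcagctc

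The match began 57 bases before the start in Itgb2l, 46 in Arhgap25, 15 in Rhog, 11 in Vav1 and 20 in Inpp5d. It was on the gene's own strand in Vav1 and Inpp5d and on the opposite strand in the other three. A second Arhgap25 promoter, not shown, also held the letters, beginning 11 bases before its start on the opposite strand. In expression, 27 of 107 genes with a match (25.2%) and 328 of 1688 without one (19.4%) had at least 2-fold higher values in granulocytes than in GMP. Lower values were found for 23 (21.5%) and 359 (21.3%), and the medians of the log2 ratio were -0.12 and -0.03.

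The late PU.1 enhancers lay on 20 chromosomes, where they made up between 5.21% of the enhancers (X) and 7.82% (chromosome 12). Their width had a median of 212 bp (4 to 962 bp). Most lay apart from each other: 394 (13.3%) lay within 1000 bp of another and 808 (27.2%) within 10000 bp. Of the 2223 genes, 1709 had 1 late PU.1 enhancer, 514 had at least 2 and 54 at least 4. Many genes also had other enhancers of the same stage classes. PU.1 with CEBPA was found at 526 of the genes (23.7%, against 14.2% of all genes in the table), CEBPA alone at 610 (27.4%, against 17.3%) and neither factor at 1162 (52.3%, against 36.8%). A gene with many enhancers has more chances of holding each kind, and the shares were not adjusted for that.

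The level of PU.1 at these enhancers follows in part from their choice by a PU.1 call, and is given as a description. Its median signal was 3.07 in LSK, 4.89 in preGM and 4.69 in GMP. At the 9327 enhancers of the same stage classes with neither factor it was 0.65, 0.72 and 0.73. The other sets with a PU.1 call had LSK medians close to or above that of the late PU.1 enhancers: 3.0 at PU.1-only enhancers of preGM or GMP without granulocytes, 3.14 with PU.1 and CEBPA in the same stage classes, and 3.78 at PU.1-only enhancers of all stages. The enhancers classed in granulocytes alone had nearly as much PU.1 as the earlier ones, with medians of 2.90, 4.59 and 4.55. Their H3K27ac had medians of 1.02 in LSK, 1.04 in preGM, 1.34 in GMP and 2.80 in granulocytes. A part of them already carried H3K27ac in GMP, with a 75th percentile of 5.62 in GMP and 5.86 in granulocytes. Their H3K4me1 had medians of 2.50, 2.25, 2.96 and 6.65 in the same order. In these enhancers the median of both marks was highest in granulocytes. CEBPA in wild type preGM had a median of 0.50 at the late PU.1 enhancers and 0.48 at those with neither factor.

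**Figure D1:**
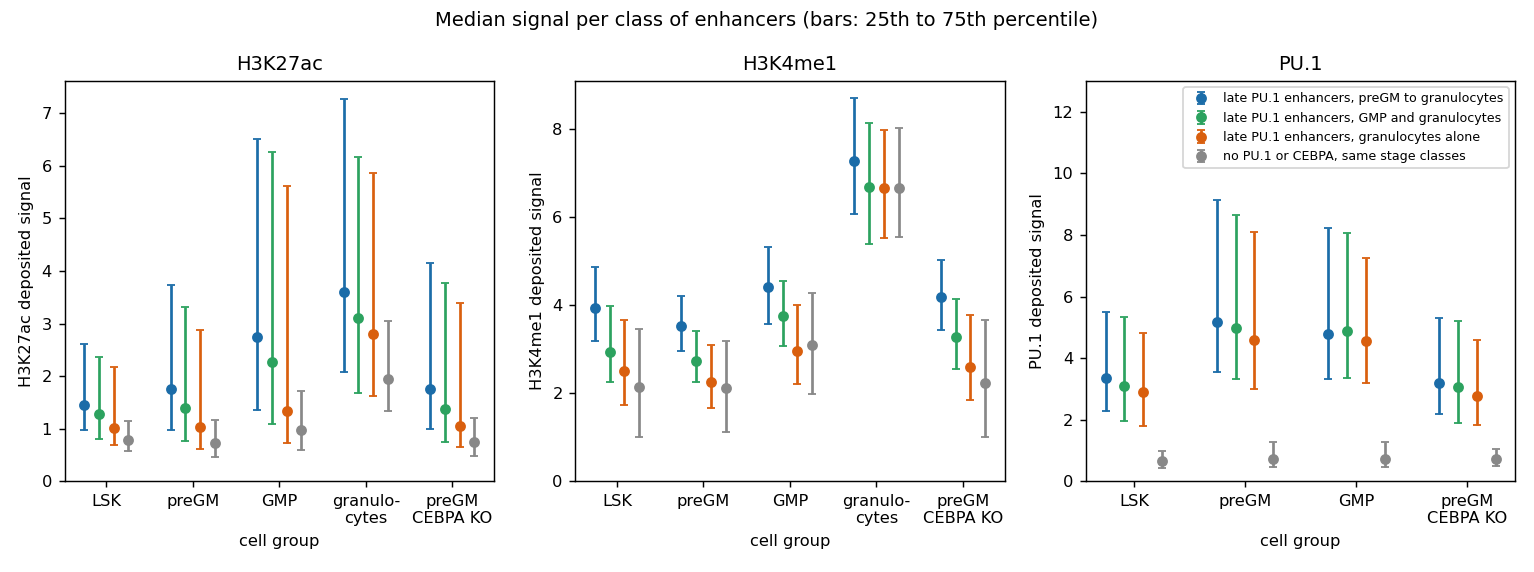
Median deposited signal (points) with the 25th to 75th percentile (bars) of H3K27ac, H3K4me1 and PU.1 in each cell group, for the 3 stage classes of late PU.1 enhancers and for enhancers of the same stage classes with neither factor. PU.1 is near 3 in LSK in all 3 classes and under 1 in the grey set, while H3K4me1 is highest in granulocytes in every set.

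From LSK to preGM, PU.1 was at least 2-fold higher at 421 late PU.1 enhancers (14.2%, against 6.56% of all enhancers) and lower at none (against 0.0364%). Between preGM and GMP, 33 were at least 2-fold higher (1.11%, against 0.768%) and 11 lower (0.371%, against 0.775%). From LSK to GMP, 473 were higher (15.9%, against 7.33%) and 5 lower (0.169%, against 0.280%). The median log2 ratio from LSK to GMP was 0.45, and 0.25 relative to the median of all enhancers (0.20). With that median subtracted, 312 were at least 2-fold higher (10.5%, against 4.6%).

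The enhancer of Hpcal1, a gene of the neuronal calcium sensor family, had the largest PU.1 ratio from LSK to GMP. Its PU.1 values were 1.88 in LSK, 20.2 in preGM and 21.0 in GMP. Its H3K27ac stayed between 0.59 and 1.48 in the progenitors and was 11.6 in granulocytes, so PU.1 stood high for 2 stages before the mark. At Smyd3, a lysine methyltransferase gene, PU.1 was 1.19, 5.01 and 14.6, and its H3K4me1 already reached 4.86 in GMP from 0.73 in LSK. Neu1, which encodes the lysosomal sialidase, had 2 such enhancers with PU.1 at 1.44, 2.12 and 11.2 and at 0.86, 3.05 and 6.62. Ctsd, encoding the lysosomal protease cathepsin D, had PU.1 values of 2.79, 13.6 and 18.0. Bid, a proapoptotic BCL2 family gene, had 0.69, 3.96 and 6.79. In each of these enhancers the value in LSK was the lowest of the 3.

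Of the 5 enhancers with at least 2-fold lower PU.1 in GMP than in LSK, 4 were strongly bound in LSK. A pair at Sorl1, which encodes a sorting receptor of the endosome, had PU.1 at 9.93 and 10.6 in LSK, 8.51 and 8.97 in preGM, and 4.34 and 4.60 in GMP. H3K27ac at the same pair was 0.46 and 0.39 in GMP and 4.16 and 7.10 in granulocytes. The enhancer of Hrh2, the histamine H2 receptor gene, had PU.1 values of 11.5, 9.90 and 5.21 with H3K27ac at 0.67 in GMP and 2.35 in granulocytes. That of Riok2, a kinase of ribosome maturation, had 41.0, 40.9 and 20.0 with H3K27ac at 6.45 and 3.13. PU.1 was thus lower in GMP than in LSK at all 4, while H3K27ac was higher in granulocytes than in GMP at Sorl1 and Hrh2 and lower at Riok2. The remaining one, at Polr1a, an RNA polymerase I subunit gene, had weaker PU.1 (2.30, 1.62 and 0.82) and is named after its values were seen. PU.1 was not measured in granulocytes in the columns used.

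Some enhancers had strong PU.1 with weak H3K27ac, and that of Arf1 had strong H3K27ac with PU.1 near the medians. The 6 enhancers with the highest mean PU.1 were those of Nnmt, Tax1bp1, Actb, 4831426I19Rik, Zswim6 and F2rl2. At Nnmt, the gene of nicotinamide N-methyltransferase, PU.1 was 58.7 in LSK, 87.0 in preGM and 59.0 in GMP, and H3K27ac did not pass 1.23 in any group. At Tax1bp1, an autophagy adaptor gene, PU.1 was 48.2, 73.6 and 74.6, with H3K27ac of 0.89, 0.33 and 0.41 in these cells and 1.77 in granulocytes. Near F2rl2, which encodes a protease-activated receptor, PU.1 was 39.3, 69.7 and 51.3, with H3K27ac of 0.92, 0.90 and 0.35 and then 4.13 in granulocytes. These 3 belong to the class seen in granulocytes alone, as does the enhancer of Actb, where H3K27ac was 2.34 in GMP and 6.05 in granulocytes. Their H3K4me1 in granulocytes was 5.14 at Nnmt, 6.91 at Tax1bp1, 6.98 at F2rl2 and 7.05 at Actb. The 297 enhancers with the highest LSK PU.1 had a median PU.1 of 14.6 in LSK. Their median H3K27ac was 1.36 in LSK and 3.58 in granulocytes, against 1.24 and 3.13 over all late PU.1 enhancers. Their median H3K4me1 was 3.59 and 6.94, against 3.20 and 6.91. The enhancer of Arf1, a GTPase of vesicle traffic, had H3K27ac of 32.4 in GMP and 30.4 in granulocytes with PU.1 of 3.44, 4.06 and 4.83.

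H3K27ac was higher in GMP than in LSK at many late PU.1 enhancers. The count was 41 at least 2-fold higher from LSK to preGM (1.38%, against 0.720% of all enhancers), 434 from preGM to GMP (14.6%, against 9.21%) and 906 from LSK to GMP (30.5%, against 15.1%). Only 6 were lower in GMP than in LSK (0.202%, against 0.509%). The median from LSK to GMP was 0.58, and 0.30 relative to all enhancers, whose own median was 0.28. With that median subtracted the count was 554 (18.7%, against 7.83%). The 30.5% is not particular to the late PU.1 enhancers. Without the subtraction, the share was 31.6% at PU.1-only enhancers of all stages and 18.5% at those of preGM or GMP without granulocytes. In the same stage classes it was 25.8% with PU.1 and CEBPA and 12.9% with neither factor. The ratios of H3K27ac and PU.1 from LSK to GMP were not ordered alike, with a Spearman correlation of -0.08 over the 2967 enhancers and 0.21 over all 44002. The 2967 were chosen by a PU.1 call and a stage class, and the part of that choice in the difference was not tested.

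The highest of these ratios was at Fam46a, which encodes a non-canonical poly(A) polymerase. Its H3K27ac was 1.63 in LSK, 3.85 in preGM, 14.1 in GMP and 9.47 in granulocytes, and the gene's expression value was 50.3, 782, 1590 and 130. At Bcr, the GTPase-activating partner of the leukaemia fusion, H3K27ac was 1.10, 3.98, 9.08 and 3.63. Ctsz, encoding the lysosomal protease cathepsin Z, had 1.22, 1.93, 9.57 and 8.29. Srp72, a subunit of the signal recognition particle, had 3.46, 5.99, 21.0 and 9.99. All 4 had their highest H3K27ac in GMP and not in granulocytes. H3K4me1 moved less: 18 late PU.1 enhancers were at least 2-fold higher in GMP than in LSK (0.607%, against 2.23%) and none lower (against 0.241%).

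From GMP to granulocytes both marks moved. H3K27ac was at least 2-fold higher in granulocytes at 599 late PU.1 enhancers (20.2%, against 14.1%) and lower at 184 (6.20%, against 6.05%). H3K4me1 was higher at 402 (13.5%, against 9.69%) and lower at none (against 2.81%). The medians were 0.38 for H3K27ac and 0.63 for H3K4me1, or 0.24 and 0.30 relative to all enhancers, whose medians were 0.14 and 0.33. With those medians subtracted, H3K27ac was higher at 463 (15.6%, against 10.8%) and lower at 230 (7.75%, against 8.24%). The H3K4me1 count was then 77 (2.60%, against 3.43%), so its excess over all enhancers depends on the scaling. The corresponding shares in the sets of the same stage classes were 26.4% for H3K27ac and 30.9% for H3K4me1 with neither factor, and 30.7% and 8.31% with PU.1 and CEBPA.

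The ratios of both marks were not ordered alike. H3K4me1 was at least 2-fold higher at 129 of the 599 enhancers with higher H3K27ac (21.5%) and at 58 of the 184 with lower H3K27ac (31.5%). The median H3K4me1 log2 ratio was 0.70 where H3K27ac was higher, 0.60 where it differed by less than 2-fold and 0.87 where it was lower. The Spearman correlation of the 2 ratios was -0.01 over the late PU.1 enhancers and 0.41 over all enhancers, as a description over enhancers that share the same libraries. The late PU.1 enhancers were chosen by a class that includes granulocytes. Their granulocyte H3K4me1 had a 10th percentile of 4.73, against 1.4 over all enhancers. None had at least 2-fold lower H3K4me1 in granulocytes, against 2.81% of all enhancers. The part of that choice in the difference between the correlations was not tested. The groups with lower and higher H3K27ac also differed before granulocytes, although the ratio that defines them holds the GMP value. Enhancers with lower H3K27ac in granulocytes had a median H3K27ac of 3.53 in LSK, 5.15 in preGM, 10.4 in GMP and 3.27 in granulocytes. Those with higher H3K27ac had 0.94, 0.89, 0.90 and 3.81. Their PU.1 was alike, at 4.23 and 4.74 in GMP.

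**Figure D2:**
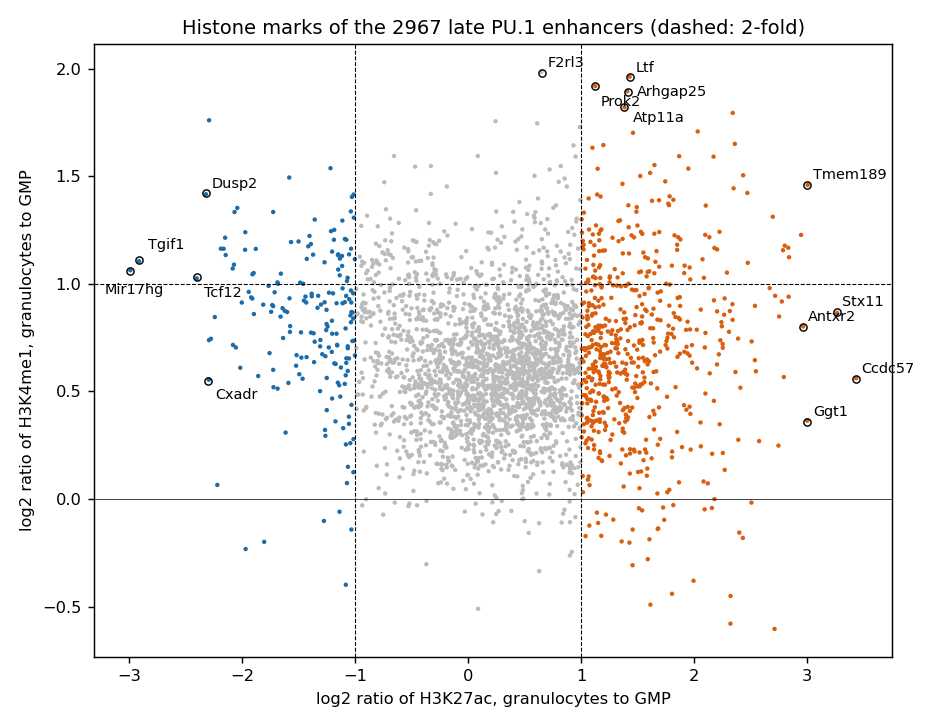
Log2 ratio of H3K27ac (x axis) and H3K4me1 (y axis) in granulocytes to GMP, 1 point per late PU.1 enhancer, orange or blue where H3K27ac is at least 2-fold higher or lower; named enhancers are ringed. Most points lie above 0 on the y axis on both sides, and no point lies at or below -1 there.

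The highest H3K27ac ratios were at Ccdc57, Stx11, Tmem189, Ggt1 and Antxr2. At Stx11 (chr10:12695062-12695505), which encodes a syntaxin of granule secretion, H3K27ac was 0.59 in LSK, 0.86 in preGM, 0.37 in GMP and 9.57 in granulocytes. PU.1 there was 10.8, 14.6 and 9.15 in LSK, preGM and GMP, and expression went from 187 in GMP to 1220 in granulocytes. At Antxr2 (chr5:98460561-98460957), an anthrax toxin receptor gene, H3K27ac was 0.58, 0.61, 0.57 and 9.19, and expression 244 in GMP and 1750 in granulocytes. PU.1 at Antxr2 was 4.63, 6.67 and 3.76. H3K4me1 went from 2.15 in GMP to 5.55 in granulocytes at Stx11 and from 2.54 to 5.91 at Antxr2. At both, H3K27ac was under 1 in LSK, preGM and GMP, where PU.1 was measured, and above 9 in granulocytes. Ggt1, the glutathione-handling gamma-glutamyltransferase, had H3K27ac of 0.84, 1.21, 0.84 and 11.6 with PU.1 of 15.5, 19.4 and 13.8. Tmem189, an enzyme of plasmalogen synthesis, had 0.91, 0.49, 0.87 and 11.9 with weak PU.1 (0.93, 2.08 and 2.29). Ccdc57 had 0.86, 1.80, 0.58 and 13.1, while its expression value was 27.9 in GMP and 22.9 in granulocytes.

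The lowest H3K27ac ratios were at Mir17hg, Tgif1, Tcf12, Dusp2 and Cxadr, of which all but Cxadr are classed in granulocytes alone. At Mir17hg (chr14:115439978-115440121), the host gene of a microRNA cluster that promotes proliferation, H3K27ac was 3.41 in LSK, 7.44 in preGM, 13.7 in GMP and 1.11 in granulocytes. H3K4me1 at the same enhancer was 3.86, 3.12, 3.48 and 9.45, and expression went from 216 in GMP to 11.6. At Tcf12 (chr9:71959554-71959722), an E protein gene, H3K27ac was 4.75, 7.61, 10.6 and 1.44, H3K4me1 3.18, 3.13, 3.84 and 9.89, and expression 1020 in GMP and 87.1 in granulocytes. These enhancers had their active mark in progenitors and their highest H3K4me1 in granulocytes. Tgif1, a homeobox repressor of TGF-beta signalling, had H3K27ac of 10.7 in GMP and 0.82 in granulocytes with H3K4me1 of 2.64 and 7.99. Dusp2, a MAP kinase phosphatase, had 9.91 and 1.42 with H3K4me1 of 2.61 and 10.3. Its expression went the other way, from 56.0 in GMP to 248 in granulocytes.

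The highest H3K4me1 ratios were at F2rl3, Ltf, Prok2, Arhgap25 and Atp11a. At F2rl3, a thrombin receptor gene, H3K4me1 was 0.60 in LSK, 0.72 in preGM, 1.10 in GMP and 10.3 in granulocytes. At Ltf, encoding lactoferrin of the secondary granules, it was 1.34, 0.76, 1.07 and 9.98, with H3K27ac of 0.70 in GMP and 3.06 in granulocytes. At Arhgap25, a Rac regulator of phagocytes with 1 of its promoters shown above, it was 1.00, 0.95, 1.09 and 9.48, and expression went from 105 to 2420. At all 3, H3K4me1 was low through GMP. Prok2, a secreted prokineticin, had 0.36, 0.55, 1.15 and 9.90, and Atp11a, a phospholipid flippase, 1.09, 0.93, 1.41 and 10. PU.1 was weak at these 5 in LSK, from 0.0914 at Prok2 to 2.05 at Ltf.

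Of the 514 genes with at least 2 late PU.1 enhancers, 269 had none with H3K27ac past 2-fold between GMP and granulocytes. In 209 at least 1 was higher in granulocytes and none lower, in 33 at least 1 was lower and none higher, and in 3 both were found. Per enhancer, 20.2% of all late PU.1 enhancers were higher and 6.20% lower. The counts of genes were not adjusted for these shares or for the 1258 late PU.1 enhancers that the 514 genes held. Rin3, which activates Rab5 in endocytosis, had the most, 8 over 77.1 kb of chromosome 12. H3K27ac was at least 2-fold higher in granulocytes at 5 of them (log2 ratios from 0.49 to 1.77 over the 8), and expression was 167 in GMP and 495 in granulocytes. At 4632428N05Rik, a synonym of Vsir in RefSeq, the gene of the inhibitory receptor VISTA, 4 of 6 were higher (0.15 to 1.52), and expression was 552 and 2130. Plxnc1, a semaphorin receptor, and Rybp, a Polycomb protein gene, each had 3 of 6 higher and none lower. Ninj2 had 0 of 6 past 2-fold in either direction. Etv6, an ETS family repressor of blood cells, stood apart with 2 higher and 2 lower. Its lower pair lay within 1000 bp at one end (H3K27ac of 5.67 and 4.21 in GMP, 1.18 and 1.01 in granulocytes), and its higher pair further along (2.78 and 3.09 in GMP, 6.47 and 9.98 in granulocytes). H3K4me1 was higher in granulocytes at all 6 Etv6 enhancers, by log2 ratios of 0.47 to 0.68.

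**Figure D3:**
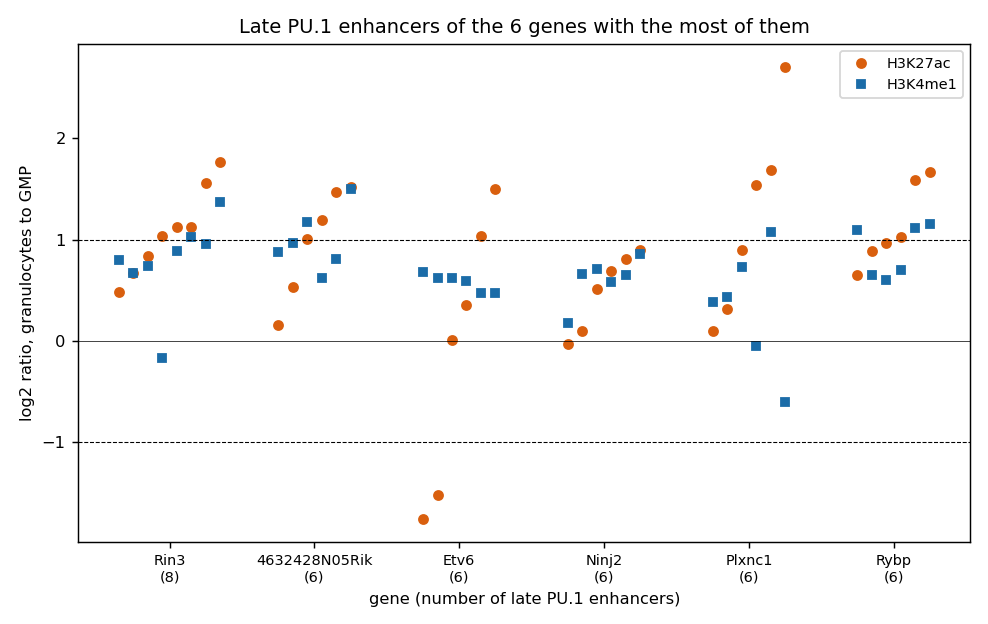
Log2 ratio of H3K27ac (orange circles) and H3K4me1 (blue squares) in granulocytes to GMP at each late PU.1 enhancer of the 6 genes with the most of them, ordered by H3K27ac within a gene; dashed lines mark 2-fold. Etv6 has H3K27ac ratios from -1.76 to 1.5 around a narrow range of H3K4me1.

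The gene groups are described by counts over the late PU.1 enhancers assigned to them, with the same medians and shares over all late PU.1 enhancers (0.38, 20.2% higher and 6.20% lower for H3K27ac from GMP to granulocytes) as the measure. For H3K4me1 the share higher in granulocytes was 13.5%, against 9.69% of all enhancers. In expression, 19.5% of the genes with a late PU.1 enhancer were higher in granulocytes, against 12.0% of all genes. Lower expression was found for 21.3%, against 19.7%. The number of late PU.1 enhancers of a group is to be read against their 6.74% share of all enhancers. The primary granule genes, expressed in progenitors, had none among their 29 enhancers, a list too short to set it apart from that share. The secondary granule and mature neutrophil genes had 10 of 242 (4.13%), at 8 genes: Ltf, Itgb2l, Cxcr2, Csf3r, Il1r2, Padi4, Trem1 and Pglyrp1. H3K27ac was at least 2-fold higher in granulocytes at 7 of the 10 and lower at none, with a median of 1.29, and H3K4me1 was higher at 5. All 8 genes had at least 2-fold higher expression in granulocytes, which follows in part from the choice of a list of neutrophil genes. At Trem1, an activating receptor, H3K27ac was 0.96 in LSK, 0.96 in preGM, 0.80 in GMP and 7.83 in granulocytes, while PU.1 was 3.75, 11 and 8.27. At Itgb2l, whose promoter is shown above, H3K27ac was 1.14, 0.43, 0.66 and 6.62, with expression of 43.7 in GMP and 3140 in granulocytes. At Padi4, the histone-citrullinating enzyme of neutrophils, H3K27ac was 0.36 in GMP and 3.07 in granulocytes, and at Il1r2, the interleukin-1 decoy receptor gene, 0.64 and 2.81.

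Fc receptor and ITAM signalling genes, which carry signals from immune complexes, had 30 of 299 enhancers (10%) at 12 genes. H3K27ac was higher at 12 of the 30 and lower at none, with a median of 0.73, and H3K4me1 was higher at 7. Expression was at least 2-fold higher in granulocytes at 6 genes and lower at 2. Syk, the central tyrosine kinase of this pathway, had H3K27ac of 1.19 in LSK, 0.97 in preGM, 2.58 in GMP and 6.24 in granulocytes, and expression of 608 in GMP and 2820 in granulocytes. Sirpa, an inhibitory receptor that binds CD47, had 0.80, 0.81, 2.35 and 6.56 with PU.1 of 27.9, 33.7 and 27.4. The phosphatase gene Inpp5d had 1.57, 3.87, 3.21 and 8.08 at its strongest enhancer. Plcg2, a phospholipase of the same pathway, had 2.25, 3.90, 8.80 and 11.7, less than 2-fold from GMP to granulocytes.

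Actb, the cytoplasmic actin gene and 1 of the 6 with the strongest PU.1 (47.8, 74.6 and 67.9), had H3K27ac of 2.34 in GMP and 6.05 in granulocytes, and expression of 6320 and 20800. Rhog, a GTPase of phagocyte migration, had 2.35 and 4.76 with expression of 447 and 3380. The genes of NF-kB inhibitors and feedback had 23 of 265 (8.68%) at 10 genes, 9 higher and 3 lower, with expression higher at 7. Zfp36l1, an mRNA decay factor, had H3K27ac of 2.90 in GMP and 17.3 in granulocytes although its H3K4me1 was 6.96 and 4.0. Dusp1, a MAP kinase phosphatase, had 3.66 and 12.9 with expression of 175 and 2980.

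Myeloid transcription factor genes had 48 of 844 (5.69%) at 22 genes, with H3K27ac higher at 13 and lower at 5 and a median of 0.58. Bcl6, a repressor with a strong PU.1 site (43.0 in preGM), had H3K27ac of 0.56 in GMP and 5.28 in granulocytes and expression of 95.4 and 494. Fos had 6.74 and 16.1, while its expression was 2290 and 1930. Junb and Nfkb2 were active in both, with 12.3 and 14.8, and 21.5 and 16.5. Cebpa had 1 late PU.1 enhancer (chr7:35909990-35910164), with H3K27ac of 1.29, 1.02, 2.95 and 3.31 from LSK to granulocytes and PU.1 of 2.60, 4.37 and 2.30. Cytokine and growth factor receptors had 22 of 305 (7.21%) at 12 genes, 4 higher and none lower. The 4 of 22 are near the 20.2% of all late PU.1 enhancers. Genes of a list were named by high granulocyte H3K27ac and need not be typical of it. Il10ra, the interleukin-10 receptor gene, had H3K27ac of 0.50 in GMP and 7.50 in granulocytes. Pattern recognition genes had 8 of 89 (8.99%), 2 higher and none lower. Tlr5, the flagellin receptor, had H3K27ac of 0.55 in GMP and 4.78 in granulocytes, and Nod1 had 2.97 and 10.1.

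Cell cycle genes had 8 of 164 (4.88%) at 5 genes, with 2 higher and 1 lower, while expression was lower in granulocytes at 4 of the 5. Cdk6, a G1 kinase, had the lower one: H3K27ac was 4.38 in LSK, 10.5 in preGM, 20.4 in GMP and 4.33 in granulocytes, H3K4me1 4.26, 2.66, 3.86 and 12.8, and expression 2990 in GMP and 414 in granulocytes. As at Mir17hg and Tcf12, H3K27ac was lower and H3K4me1 higher in granulocytes. Monocyte and macrophage genes had 6 of 140 (4.29%) at 5 genes and none past 2-fold in H3K27ac. Genes of chemokines and of chemokine and chemoattractant receptors had 7 of 135 (5.19%) with 2 higher. Integrin and adhesion genes had 5 of 210 (2.38%) with 1 higher. Apoptosis and survival genes had 10 of 131 (7.63%) with 2 higher and 1 lower, and stem and multipotent progenitor genes 8 of 264 (3.03%) with 2 higher and 2 lower. In the stem and multipotent progenitor list, the 2 higher and the 2 lower were all at Etv6. The lists of markers of other cell types are short. Erythroid (15 enhancers), B cell (12), T and NK cell (19) and mast cell, basophil and eosinophil genes (17) had no late PU.1 enhancer, and megakaryocyte (37) and dendritic cell genes (21) had 1 each, at Vwf and Batf3. At these sizes the counts do not set the lists apart from the 6.74% of all enhancers.

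The CEBPA KO comparison asks what the enhancers look like in preGM without CEBPA. PU.1 was lower in the KO across the late PU.1 enhancers although they carry no CEBPA call. The median signal was 4.89 in wild type and 3.03 in KO preGM, next to 3.07 in LSK. PU.1 was at least 2-fold lower at 430 (14.5%, against 6.15% of all enhancers) and higher at none (against 0.0955%). The median log2 ratio was -0.66, with 25th and 75th percentiles of -0.88 and -0.43, and -0.39 relative to all enhancers, whose median was -0.27. With that median subtracted, 119 were at least 2-fold lower (4.01%, against 1.99%). Against LSK, PU.1 in KO preGM had a median ratio of -0.09. The late PU.1 enhancers carry a PU.1 call, which may rest on the wild type preGM value in this ratio, and the part of that choice in its size was not tested. The unbound set of the same stage classes had a median of -0.07.

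The enhancers with PU.1 and CEBPA of the same stage classes had a median of -0.79 and 28.4% at least 2-fold lower. PU.1-only enhancers of preGM or GMP without granulocytes had -0.61 (14.1%), and those of all stages -0.68 (12.3%). The late PU.1 enhancers were also divided into 5 equal groups by LSK PU.1, and those with CEBPA at the same values. In the lowest group 13.6% of the late PU.1 enhancers and 35.2% of those with CEBPA had 2-fold lower PU.1, with medians of -0.53 and -0.82. In the highest group the shares were 20.5% and 27.9%, with medians of -0.82 and -0.83. Both sets were thus furthest apart where PU.1 was weakest in LSK. These are descriptions with no test, and the grouping was made after the data were seen. The 3 stage classes were close, with medians of -0.67, -0.69 and -0.63.

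**Figure D4:**
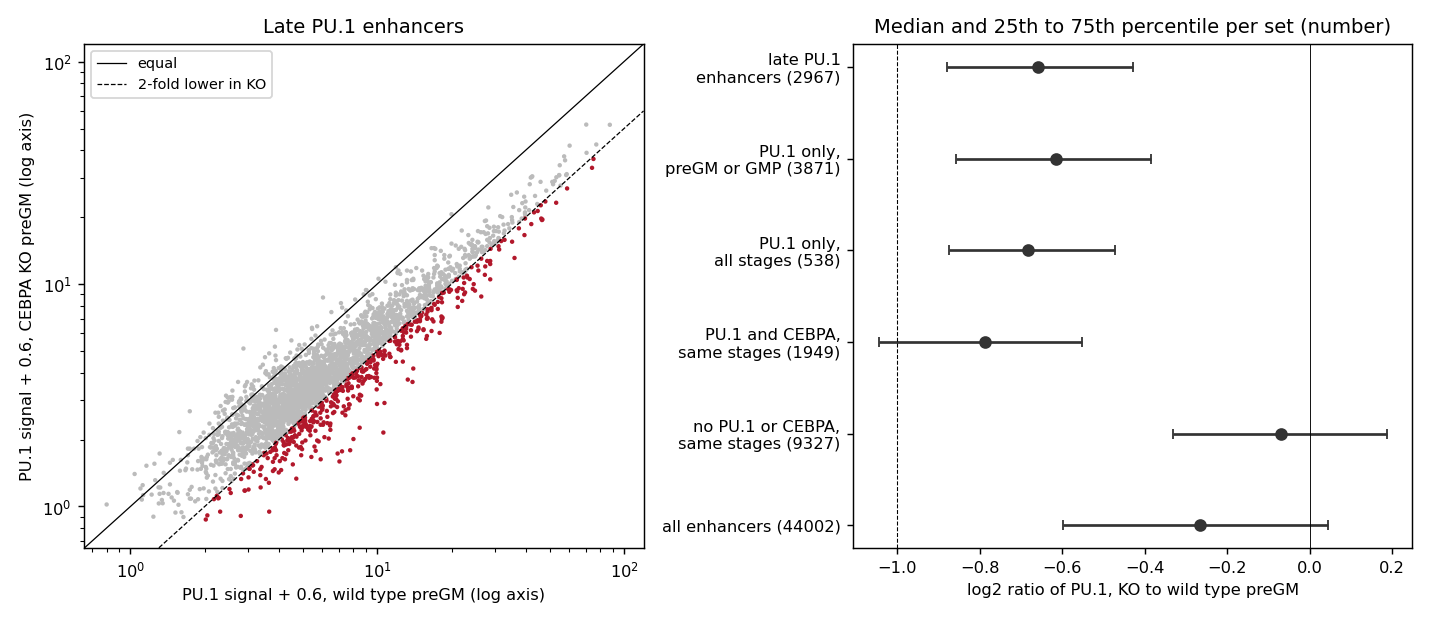
Left, PU.1 signal plus the pseudocount in CEBPA KO (y) and wild type preGM (x), both on log axes, 1 point per late PU.1 enhancer, red where at least 2-fold lower in the KO. Right, median and 25th to 75th percentile of the log2 ratio for the late PU.1 enhancers and the comparison sets; the late PU.1 enhancers are centred at -0.66 and those with CEBPA at -0.79.

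The lowest ratios were at Scnn1a, Plekho2, Runx1 and Baz2a. At Scnn1a (chr6:125283501-125283615), an epithelial sodium channel gene, PU.1 was 2.10 in LSK, 9.99 in wild type preGM, 11.5 in GMP and 1.55 in KO preGM. H3K27ac there was 1.36 in wild type and 0.89 in KO preGM. A pair at Plekho2 had PU.1 of 2.04 and 2.10 in LSK, 6.43 and 7.17 in wild type preGM, and 0.99 and 1.19 in KO preGM. At Runx1 (chr16:92716697-92716803), a core blood transcription factor gene, it was 1.64, 6.6 and 1.17, and expression was 657 in wild type and 644 in KO preGM. Baz2a, a chromatin remodelling subunit, had 2.33, 6.31 and 1.13, with 14.7 in GMP. In all 5 the KO value was below that of LSK. The gene groups are to be read against the 14.5% and the median of -0.66 over all late PU.1 enhancers. The monocyte and macrophage genes had 4 of 6 enhancers at least 2-fold lower with a median of -1.24. Stem and multipotent progenitor genes had 4 of 8 (-1.06). All 4 were among the 6 late PU.1 enhancers of Etv6, which is also listed with the myeloid transcription factors. Apoptosis and survival genes had 4 of 10 (-0.65). Fc receptor and ITAM signalling genes had 5 of 30 (-0.81) and the myeloid transcription factors 11 of 48 (-0.80). Genes of NF-kB inhibitors and feedback had 2 of 23 (-0.58), and integrin and adhesion genes 1 of 5 (-0.16). Ctss, the monocyte cathepsin S gene, had PU.1 of 11 in LSK, 21.9 in wild type and 8.40 in KO preGM. At Ltf it was 2.05, 5.30 and 1.03. Itgb2l went the other way, with 2.17, 3.29 and 5.62.

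The histone marks differed little in the KO. H3K27ac was at least 2-fold higher at 9 late PU.1 enhancers (0.303%, against 0.441%) and lower at 14 (0.472%, against 0.470%), with a median of 0.07. H3K4me1 was not past 2-fold at any (against 0.00909% lower for all enhancers), with a median of 0.14. The ratios of PU.1 and H3K27ac had a Spearman correlation of 0.04 over the late PU.1 enhancers. At the enhancer with the lowest H3K27ac ratio, that of Il6ra, the interleukin-6 receptor gene, H3K27ac was 3.10 in LSK, 4.87 in wild type preGM and 1.00 in KO preGM, while GMP and granulocytes had 9.33 and 9.95. PU.1 there was 3.99 in wild type and 2.16 in KO preGM, and expression 127 and 101. At Fam46a H3K27ac was 3.85 and 1.49, PU.1 2.87 and 1.43, and expression 256 and 141. Pde3b, a phosphodiesterase gene, had higher H3K27ac (1.25 and 3.84) and expression (106 and 272) in the KO with lower PU.1 (4.36 and 1.67).

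Cell markers differed between the genotypes too, and their part in these results was not tested. In the expression values of the KO pair, the summed value of the 8 granulocyte markers was 1560 in wild type and 363 in KO preGM, that of the 4 monocyte markers 1490 and 219, that of the 6 progenitor markers 9730 and 4870, and that of the 6 LSK markers 4820 and 3150. Other sums were higher in the KO: 313 and 400 for 2 megakaryocyte markers, 128 and 163 for 3 of T and NK cells, 86.5 and 92.2 for 2 of B cells, and 204 and 215 for 1 erythroid marker. The 1 marker of mast cells, basophils and eosinophils had 46.0 and 34.8. The progenitor markers include Cebpa itself, and Ltf, Cxcr2, Csf1r, Ly86 and F13a1 among the granulocyte and monocyte markers are also genes with a late PU.1 enhancer.

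Expression was given by 1 value per gene in 4 wild type stages, and in a separate pair of wild type and KO preGM on another scale. The platform and the link to the listed RNA libraries are not stated, and pseudocounts of 30 and 70 were added. From GMP to granulocytes, 434 of the 2223 genes with a late PU.1 enhancer were at least 2-fold higher (19.5%, against 12.0% of the 10096 genes) and 473 lower (21.3%, against 19.7%). The median was -0.03, against -0.08 over all genes. Genes with 2 or more late PU.1 enhancers were higher more often: 166 of 514 (32.3%) were higher and 73 (14.2%) lower. They were not compared with genes that have as many enhancers of other kinds. Of the 1358 with a late PU.1 enhancer and no CEBPA-bound enhancer of the same stage classes, 177 (13%) were higher, near the 12.0% of all genes. In the same set 347 (25.6%) were lower, against 19.7%. With the median of all genes subtracted, 468 of the 2223 were higher (21.1%, against 13% of all genes) and 440 lower (19.8%, against 18.3%), so the more frequent direction depends on the scaling.

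Expression was higher in granulocytes more often where H3K27ac at the late PU.1 enhancers was. Where their median H3K27ac was at least 2-fold higher in granulocytes (387 genes), expression was at least 2-fold higher in 169 (43.7%) and lower in 24 (6.20%), with a median of 0.79. Where H3K27ac was lower (149 genes), it was higher in 2 (1.34%) and lower in 80 (53.7%), with a median of -1.23. For the 1687 genes in between it was higher in 263 (15.6%) and lower in 369 (21.9%), with a median of -0.08. The Spearman correlation of both ratios was 0.45 over the 2223 genes, which are not independent replicates. The highest ratios were those of S100a6, a calcium-binding protein (19.9 in GMP and 3060 in granulocytes), Plbd1 (61.2 and 4990) and Itgb2l. The lowest were those of Kdm2b, a histone demethylase (3990 and 71.5), F13a1, a monocyte transglutaminase (4690 and 109), and Nop56, a ribosome biogenesis factor (3110 and 121).

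**Figure D5:**
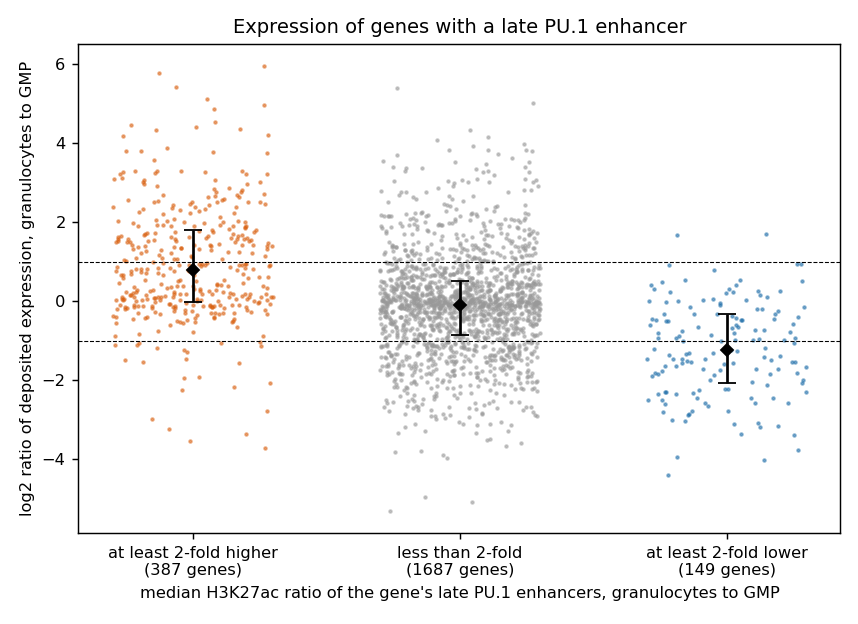
Log2 ratio of the deposited expression value in granulocytes to GMP (y axis), 1 point per gene, for genes grouped by the median H3K27ac ratio of their late PU.1 enhancers; diamonds and bars give the median and the 25th to 75th percentile. The medians are 0.79, -0.08 and -1.23 from left to right, and the groups overlap.

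In KO against wild type preGM, 4 genes with a late PU.1 enhancer had at least 2-fold higher expression (0.180%, against 0.188% of all genes) and 10 lower (0.450%, against 0.307%). The median was -0.01. The lowest ratios were at Emb, an immunoglobulin family membrane protein (1760 in wild type and 160 in KO), Ly86, a secreted accessory protein of the innate immune system (768 and 51.7), Cxcr2, the neutrophil chemokine receptor (570 and 87.7), F13a1 (258 and 38.7) and Ccl9, a chemokine (347 and 82.0). The 4 higher genes were Ccl5, a chemokine (405 and 1130), Aqp11, an aquaporin (225 and 647), Eps8l3 (117 and 373) and Ugcg, a glucosylceramide synthase (360 and 813). Over all late PU.1 enhancers, 4.15% had more PU.1 in KO than in wild type preGM, against 28.3% of all enhancers. The share was also low in the other sets with a PU.1 call. It was 4.73% at PU.1-only enhancers of preGM or GMP without granulocytes and 1.49% at those of all stages. With PU.1 and CEBPA in the same stage classes it was 2.21%. PU.1 was 10.3 in wild type and 5.40 in KO preGM at Cxcr2, 2.31 and 0.58 at one of a pair at Emb, and 20.2 and 9.94 at one of a pair at Eps8l3. The second Eps8l3 enhancer had 2.76 and 3.62.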

How the data were processed

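Bone marrow cells were sorted and profiled by ChIP-seq and RNA sequencing (77 listed samples, 53 ChIP-seq and 24 RNA libraries). For ChIP-seq, the tools in the submitters' processing notes are MACS2, Bowtie2 and bedtools. For RNA the submitters' processing notes give STAR, featureCounts, bedtools and DESeq2. The build is mm9 and no settings are given. The authors deposited 1 table of 44002 enhancers with a stage class, a bound-factor class, a gene and 1 signal value per assay and cell group, and beside it 1 expression score per gene and group, in linear units that are not stated. How that signal was normalised, how the libraries of a group were pooled and how the expression values were made are not given in the sources used here, and neither is whether starts count from 0 or 1. Of its value columns 21 were used (15 ChIP-seq, from groups of 2 libraries each, and 6 expression) and 11 were not, since no listed sample or stated quantity matched them.

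Log2 ratios were computed with Python 3.11.15, numpy 2.4.6 and pandas 2.3.3, with figures by matplotlib 3.10.9. The pseudocount was the 25th percentile of a quantity's values over all enhancers or genes, rounded to 1 digit. A ratio of 2-fold or more was counted. The calculation was tested on simulated data. With 1 value per group no error, interval or test could be given. For each comparison the genes of the 5 highest and 5 lowest ratios past 2-fold could be named, where the larger value reached the median. So could up to 5 genes per list by granulocyte H3K27ac, the 6 enhancers with the most PU.1 or H3K27ac, the 6 genes with the most late PU.1 enhancers, and Cebpa. Genes outside these are members of a list named in full. The members and the 21 gene lists were chosen with earlier results of these data known, and the promoter search, the grouping by LSK PU.1 and the ratios from LSK to preGM and from preGM to GMP were added after the data were seen. Alternatives were another pseudocount, subtraction of the median, a filter on low values and a minimum width of 100 bp. Results on 2 of the gene lists are not reported here.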

Additional observations from a re-analysis of the deposited data

How the results depend on the processing

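Of 48 alternative values for 10 counts, 29 stayed within 1.5 times the value reported and kept its direction. With the pseudocount divided by 4, the count of late PU.1 enhancers past 2-fold was 930 for H3K4me1 from GMP to granulocytes, 153 for H3K4me1 from LSK to GMP, 1 for H3K4me1 in the KO and 666 for lower PU.1 in the KO. H3K27ac in the KO then turned, with 75 higher and 72 lower. With 4 times the pseudocount, the counts were 428 for H3K27ac from LSK to GMP, 168 for H3K27ac and 1 for H3K4me1 from GMP to granulocytes, 0 for H3K4me1 and 158 for PU.1 from LSK to GMP, 1 for H3K27ac and 105 for PU.1 in the KO, and 3 genes for lower expression in the KO. With the median of all enhancers or genes subtracted, they were 554 for H3K27ac, 9 for H3K4me1 and 312 for PU.1 from LSK to GMP, 77 for H3K4me1 from GMP to granulocytes and 119 for PU.1 in the KO. Expression from GMP to granulocytes then turned, with 440 genes lower and 468 higher. A filter on low values and a minimum width of 100 bp moved none of the counts they were run on by over 1.5 times. The cause of these differences was not tested.

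No paired analysis was possible because the columns pool the replicates of each group, and leaving out each replicate in turn was not run for the same reason. The depth behind the values is unknown, so a low signal cannot be told from an absent one.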
